A study of Mus musculus with 2 samples.

Results

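The cells described here expressed monocyte genes and carried an intermediate amount of C1q transcripts, and they were labelled monocytes in transition to macrophages. Members were chosen by measured values. A barcode was a member if it passed the cell filter, had at least 3 Ly6c2 UMIs (unique molecular identifiers, each standing for 1 captured transcript), and had Lyz2 at 0.3% or more and C1qa plus C1qb from 0.3% to under 0.8% of its UMIs. It also had fewer than 2 UMIs of Cd3d, Cd3e and Cd3g together, none of Ncr1, Klrb1c or Siglech, and fewer than 2 of Cd209a. The rule found 360 of 15234 filtered cells, 176 of 7079 in the ibudilast library and 184 of 8155 in the PBS library. The word transition is the label's: no order in time was measured, and a cell in the band is known only to hold both kinds of transcript.

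Both libraries came from the brains of C57BL/6 mice bearing an intracranial glioma grown from GL261, a mouse glioma cell line, and held CD45+ cells, which the labels call lymphocytes that had infiltrated the tumour. One library came from mice given 20 mg/kg ibudilast, an inhibitor of phosphodiesterases and of the cytokine MIF, by gavage 5 times a week for 2 weeks. The other came from mice given PBS on the same schedule, although a label of that library says untreated. With 1 library per treatment there was no test, and the number of mice behind each library was not stated in the labels. A difference between the libraries cannot be told apart from one between mice, dissections or runs.

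Classical monocytes enter an inflamed or tumour-bearing brain from the blood by way of the chemokine receptor CCR2. As they differentiate in tissue they lose Ly6C and gain macrophage genes, among them those of C1q, the recognition molecule of the classical complement pathway, and often MHC class II, which presents peptides to CD4+ T cells. Cells with both sets of transcripts are commonly read as lying between both states.

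The libraries differed in depth and quality. The ibudilast library had 8483 barcodes, a median of 6809 UMIs and 15.6% of barcodes lost to the mitochondrial limit, against 8968 barcodes, a median of 11052.5 UMIs and 8.93% lost in the PBS library. They shared 19 barcodes, of which 1 was a member in both. Among members the median depth was 7542 UMIs with ibudilast and 9022 with PBS. Levels below are in CPM of the UMIs summed over a set of cells. Every interval is a 95% interval for counting error, and leaves out how much cells or mice vary.

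The members were compared with their neighbours along the C1q axis, which passed all the same gates but had C1q below the band (687 ibudilast and 547 PBS cells) or above it (361 and 560 cells). Members made up 2.49% (exact Clopper-Pearson interval 2.14 to 2.88%) of filtered ibudilast cells and 2.26% (1.94 to 2.60%) of filtered PBS cells, a ratio of 1.10 (0.891 to 1.36). That ratio lay between those of its neighbours. Cells below the band made up 9.70% of the ibudilast library and 6.71% of the PBS library, a ratio of 1.45 (1.29 to 1.62). Cells above the band made up 5.10% and 6.87%, a ratio of 0.743 (0.649 to 0.849). The Ly6c2 gate is a count of UMIs, so a deeper cell passes it at a lower Ly6c2 level. Cells above the band had medians of 10959 UMIs and 954 CPM of Ly6c2 with ibudilast, and 16103 UMIs and 494 CPM with PBS. The part of depth in their share and their Ly6c2 level was not tested. Among cells that passed the Ly6c2 and Lyz2 gates, members were 14.4% of 1224 ibudilast cells and 14.3% of 1291 PBS cells, while cells below the band were 56.1% and 42.4%. The share of members therefore depended on the denominator: of cells that passed every gate except Ly6c2 and C1q it was 9.97% with ibudilast and 5.99% with PBS, a ratio of 1.66 (1.35 to 2.06).

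The label comes with 5 marker genes, and the rule used 2 of them, Ly6c2 and C1qa, so their levels are given only as a description. Ly6c2, a surface marker of classical monocytes (mm10 chr15:75108158-75111970, minus strand), stood at 2738 CPM in ibudilast and 2443 CPM in PBS members, between 4157 and 3632 CPM below the band and 1266 and 772 CPM above it. C1qa, a subunit of C1q (chr4:136895917-136898803, minus strand), stood at 2133 CPM in ibudilast and 2562 CPM in PBS members. Below the band it was at 258 CPM with ibudilast and 307 CPM with PBS, and above it at 8046 and 8171 CPM. The other 3 markers were lower above the band than below it in both libraries. Ccr2, the receptor noted above (chr9:124101950-124113557, plus strand), was at 404 CPM in ibudilast and 392 CPM in PBS members, against 556 and 597 CPM below the band and 219 and 189 CPM above it. Ms4a4c, a membrane protein gene of the MS4A family (chr19:11404770-11427246, plus strand), was at 1361 CPM in ibudilast and 1126 CPM in PBS members. Ly6i, a Ly6 family gene near Ly6c2 (chr15:74979534-74983430, minus strand), was at 410 CPM in ibudilast and 376 CPM in PBS members, against 469 and 388 CPM below the band and 198 and 108 CPM above it. The label's markers were thus all present. Ly6c1, a near copy of Ly6c2, had 0 UMIs in ibudilast and 3 in PBS members, against 4421 and 4833 of Ly6c2. How reads that fit both genes were counted was not tested.

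The rule's limits cut a continuous range. Just inside the lower C1q limit, at 0.3 to 0.4%, the 38 ibudilast cells had 2286 CPM of Ly6c2 and 3512 CPM of Plac8 (a monocyte gene that the rule did not use). Just outside it, at 0.2 to 0.3%, the 55 ibudilast cells had 4438 and 5360 CPM of the same genes. In PBS, the 37 cells inside had 3343 CPM of Ly6c2 and 3683 CPM of Plac8, and the 31 outside had 3412 and 2976 CPM. At the upper limit, Plac8 was at 2754 CPM in 33 ibudilast cells inside and 1776 CPM in 36 outside, and at 1999 CPM in 44 PBS cells inside and 1686 CPM in 43 outside. At the lower limit Plac8 was thus lower inside than outside with ibudilast, and higher inside than outside with PBS.

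C1q transcripts were also found in barcodes of T cells, a cell type that should not make them. In T cells (3 or more Cd3 UMIs and Lyz2 under the gate) C1qa plus C1qb had a median of 0.162% of UMIs in 1385 ibudilast cells and 0.282% in 1140 PBS cells, and 40.9% and 48.9% of these cells reached the lower limit of the band. The 90th percentile of C1q in these T cells was 1.16% with ibudilast and 1.27% with PBS. Doublets were not removed from this T cell set, and their part in its C1q was not tested. How much of the members' C1q came from outside the cell was not tested. Members were among the highest 6% of doublet scores in 3.98% of ibudilast and 5.98% of PBS cells, against 1.31% and 0.548% of the cells below the band and 4.16% and 8.93% of those above it.

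To see whether the genes fell in the same cells, each cell was thinned to 2000 UMIs, which left out 1 ibudilast and 2 PBS members. Ms4a4c and C1qc, the third C1q chain and not part of the rule, were both found in 80% of ibudilast members (140 of 175) and 77.5% of PBS members (141 of 182). The pair was also found in 78.2% of ibudilast and 71.1% of PBS cells above the band, and in 24.6% and 25.5% of cells below it. Below the band Ms4a4c was found in 93.6% of ibudilast and 89.6% of PBS cells, and C1qc in 25.9% and 28.8%. The lower share of the pair there thus followed C1qc. Since the band was cut on the other C1q chains, nothing is read from that difference. Ccr2 was found in 48.6% of ibudilast and 45.6% of PBS members, and in 16.6% and 16.7% of T cells, which were deeper, with medians of 11644 and 12077.5 UMIs. Unthinned, Ccr2 was found in 80.7% of ibudilast members. Ms4a7, a macrophage gene of the MS4A family, was found in 49.1% of ibudilast and 41.2% of PBS members, above the 29.7% and 30.7% of T cells. Ccr2 and Ms4a7 were found together in 20% of ibudilast members and 16.5% of PBS members, so most thinned members held UMIs of at most 1 of the 2 genes. Above the band they were found together in 23.5% of ibudilast and 16.25% of PBS cells, and below it in 15.3% and 7.88%. Holding both genes was thus not particular to the members. C1qc was found in 93.1% of ibudilast and 92.3% of PBS members but also in 58.5% and 68.6% of T cells. The members' shares have to be read against that background, from which doublets were not removed.

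Gene groups differed along the C1q axis at different points of it. The monocyte genes summed to 20328, 16306, 11020, 8640, 5787 and 3081 CPM over 6 bands of rising C1q in the ibudilast library, and to 21820, 15564, 10537, 7621, 4332 and 2581 CPM in the PBS library. Each band was lower than the one before it in both libraries. MHC class II genes summed to 13341, 19444, 32212, 32797, 38548 and 41962 CPM with ibudilast and 13517, 23452, 36614, 39328, 45731 and 53763 CPM with PBS, so that most of the difference lay between the lowest band and the first band of members. Macrophage genes summed to 17388, 20275, 25147, 36954, 39397 and 52037 CPM with ibudilast and 14104, 22976, 24304, 26933, 35648 and 44272 CPM with PBS. Among genes that differed by at least 4-fold between the 2 neighbours, members lay at a median of 0.565 of the log distance for 38 rising genes with ibudilast and 0.583 for 59 with PBS, where 0 is the level below the band and 1 the level above it. For falling genes the place was 0.507 for 75 genes with ibudilast and 0.531 for 76 with PBS. On the log scale the members were thus near the middle of the axis. On the linear scale they were nearer the lower of the neighbours' levels for both kinds of gene, at a place of 0.339 with ibudilast and 0.358 with PBS for rising genes and of 0.730 and 0.776 for falling genes.

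**Figure D1:**
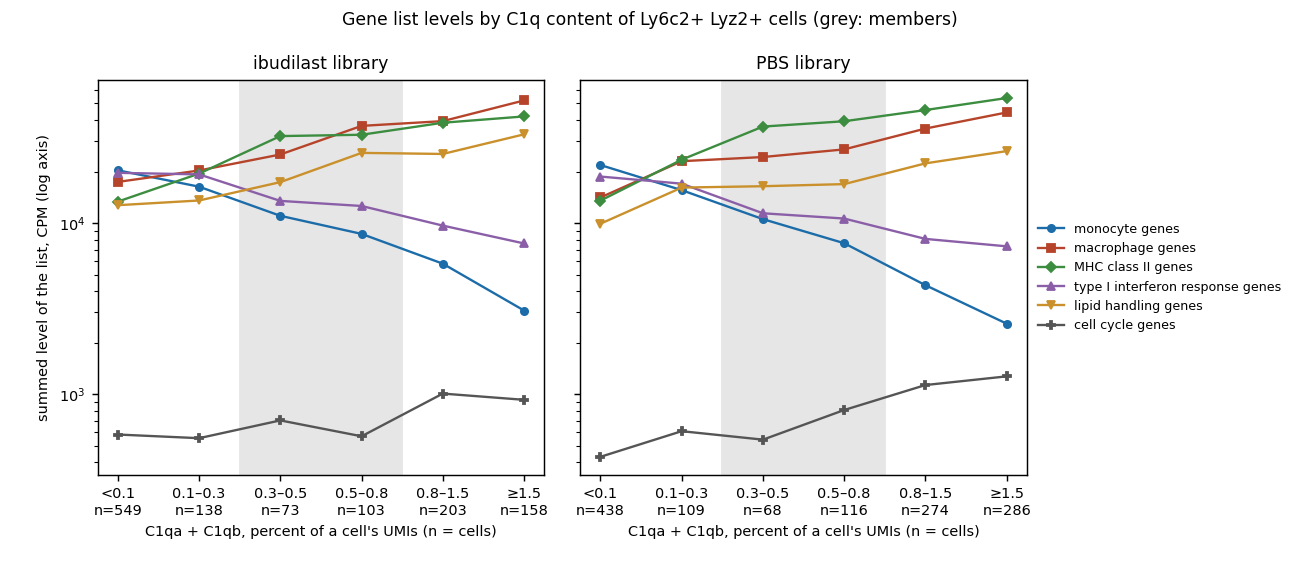
Summed level of 6 gene lists in CPM (log axis) in Ly6c2+ Lyz2+ cells of the ibudilast library (left) and the PBS library (right), by C1qa plus C1qb as a percent of each cell's UMIs; n gives the cells per band and grey marks the members. Monocyte genes were lower in each higher band of both libraries, down to 3081 CPM with ibudilast and 2581 CPM with PBS in the highest band, while MHC class II genes had reached 32212 and 36614 CPM in the first band of members.

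Against the cells below the band, 16.2% of 7192 genes were past the higher limit in both libraries and 11.7% past the lower one. The lower limit is a ratio of 0.8 and the higher limit its inverse. Against the cells above it, 9.25% of 7689 genes were higher and 6.75% lower. The rule used C1q to part these cells, so nothing is read from the counts that follow. Of 26 monocyte genes, 23 were lower in members than below the band and 23 of 25 were higher than above it. All 9 MHC class II genes compared were higher in members than below the band, with a median log2 ratio of 1.09 with ibudilast and 1.31 with PBS, whereas against the cells above the band 2 of 10 were higher and 1 was lower. Of 23 type I interferon response genes, 21 were lower than below the band and 18 were higher than above it. Of 11 cell cycle genes, 6 were higher than below the band, and of 15, 12 were lower than above it.

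Named genes of these comparisons show what each side was like. C1qc was 8.06-fold higher in members than below the band with ibudilast and 7.41-fold with PBS. Hpgds, the haematopoietic prostaglandin D synthase, was 3.28-fold and 3.26-fold higher, and H2-Eb1, an MHC class II chain, 2.55-fold and 2.91-fold higher. Hp (haptoglobin), a gene of monocytes and neutrophils, was at 0.25 of the level below the band with ibudilast and 0.206 with PBS, and Cd177, a neutrophil surface gene, at 0.252 and 0.161. The mast cell protease gene Mcpt1 was at 0.0508 and 0.0714 of the level below, but 1 cell held 92.6% of its UMIs below the band with ibudilast and 1 cell held 48.9% with PBS. Against the cells above the band, Chil3, a monocyte chitinase-like protein, was 3.94-fold higher in members with ibudilast and 6.99-fold with PBS, Plac8 3.15-fold and 4.27-fold, and the alarmin-family gene S100a4 2.98-fold and 4.65-fold. Vcam1, an adhesion molecule, was at 0.251 and 0.306 of the level above the band, and the mitotic genes Ube2c and Birc5 at 0.232 and 0.294 with ibudilast and at 0.273 and 0.238 with PBS.

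Few genes were higher inside the band than in both neighbours: 54 of 6987 genes (0.773%) were past the higher limit against both neighbours in both libraries, and 14 (0.2%) past the lower one. Fabp5, a fatty acid-binding protein, had the most UMIs of those named, at 1098 CPM in ibudilast and 641 CPM in PBS members. Below the band it was at 517 CPM with ibudilast and 437 CPM with PBS, and above it at 760 and 425 CPM. That place rested on the limits and on a few cells. In PBS the cells with C1q from 0.1 to 0.3% had 805 CPM, more than the 657 and 631 CPM of the lower and upper range of members. In ibudilast the 169 members with at least 300 CPM of Ly6c2 had 576 CPM. That was less than the 760 CPM of the cells above the band, to which this Ly6c2 gate was not applied. Il1r2, the decoy receptor for interleukin-1, was at 34.1 CPM in ibudilast and 29.8 CPM in PBS members, against 17.9 and 18.9 CPM below and 7.53 and 18.1 CPM above the band. Hilpda, a lipid-droplet protein induced by hypoxia, was at 22.3 CPM in ibudilast and 27.3 CPM in PBS members, against 10.4 and 15 CPM below and 12.8 and 15.2 CPM above. H2-Oa, a modulator of MHC class II loading, and Il7r, the interleukin-7 receptor, also passed, but in PBS only through the members of lower C1q. There Il7r was at 46.1 CPM in members under 0.5% C1q and 6.45 CPM in members at 0.5% or more, and H2-Oa at 37.9 and 8.06 CPM. Wrap73, Tyw5, Uck2, Sirt3, Gclc, Cdc14a and Ngrn passed as well, each with fewer than 60 UMIs per library in members. The lowest in the band were led by Ptgr1, Mis18a and Strn, each with fewer than 15 UMIs per library in members, and included Glipr1 at 61.9 CPM in ibudilast and 68.2 CPM in PBS members.

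Between the treatments, members of the ibudilast library had 735 of 6131 tested genes (12%) past the higher limit against PBS and 950 (15.5%) past the lower one, where a gene was tested if it had at least 50 UMIs over the members of both libraries. The median log2 ratio of all tested genes was -0.02. The 24 genes named by rule for this comparison are given with their groups below. Each count of list genes past a limit is to be read against these shares of 12% and 15.5%.

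The MS4A family encodes membrane proteins of leukocytes. Ms4a7 (chr19:11321039-11336146, minus strand) was at 606 CPM in ibudilast and 374 CPM in PBS members, a ratio of 1.62 (1.47 to 1.79). It was found in 135 cells of each library, no cell held more than 4.6% of its ibudilast or 2.98% of its PBS UMIs, and the ratio stayed between 1.46 and 1.74 under every alternative run. It was also higher with ibudilast below the band (2.02) and above it (1.41). Of the 7 MS4A genes tested, 3 were past the higher limit with ibudilast and none was past the lower limit, with a median log2 ratio of 0.27. Over all tested genes the shares past these limits were 12% and 15.5%. Ms4a4b, an MS4A gene best known from T cells, had a ratio of 2.18 (1.56 to 3.06), and Ccl5, a chemokine that T cells also make, was at 1116 CPM in ibudilast and 645 CPM in PBS members, a ratio of 1.73 (1.61 to 1.86). The 9 T cell markers summed to 42.1 CPM in ibudilast and 25.8 CPM in PBS members with none of them at 0. That sum includes Cd3d, Cd3e and Cd3g, which the rule holds to fewer than 2 UMIs together per cell. After thinning, Ccl5 was found in 48.0% and 36.3% of members against 67.6% and 56.7% of T cells. The part of T cell RNA in the Ccl5 and Ms4a4b differences was not tested.

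Of 18 lipid handling genes tested, 9 were past the higher limit with ibudilast and 1 was past the lower limit, against 12% and 15.5% of all tested genes. The median log2 ratio was 0.32, the highest of the lists, but -0.04 when the rule was applied to thinned cells. The same median was 0.15 below the band and 0.09 above it. Apoe, an apolipoprotein of lipid-loaded macrophages, was at 16688 CPM in ibudilast and 12394 CPM in PBS members, a ratio of 1.35. Plin2, a coat protein of lipid droplets, had a ratio of 1.51 (1.35 to 1.68), and Abca1, a cholesterol exporter, one of 2.37 (1.5 to 3.81) on 58 ibudilast and 30 PBS UMIs. Trem2, a lipid-sensing receptor, had a ratio of 1.44, with an interval that reached up to 1.66 and lay above 1. Lpl, lipoprotein lipase, was the gene that went the other way, at 0.572 (0.417 to 0.777).

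Several of these differences rested on a few deep cells. Fabp5 had a ratio of 1.71 (1.59 to 1.84), but 1 ibudilast cell held 32.0% of its UMIs there, and without the top cell of each library the ratio was 1.33 (1.22 to 1.44). Gpnmb, a glycoprotein of lipid-laden macrophages, had a ratio of 2.09 (1.80 to 2.43), 1.79 without its top cells, and 1.02 when the rule was applied to thinned cells. In the ibudilast library 7 members, with a median of 24596 UMIs, passed the gate of 3 Ly6c2 UMIs while having under 300 CPM of Ly6c2. These 7 cells held 52.7% of the Fabp5 and 40.2% of the Gpnmb UMIs of all ibudilast members, whereas the 8 such PBS cells held 4.81% and 0.697%. With Ly6c2 gated at 300 CPM the ratio of Fabp5 was 0.925, on the other side of 1. Acsl1, a fatty acid-activating enzyme, had a ratio of 2.61 (1.92 to 3.59) with 41.7% of its ibudilast UMIs in 1 cell, and 1.71 without top cells. The interferon-induced Ifitm1 had a ratio of 3.29 (2.46 to 4.43) with 30.5% of its ibudilast UMIs in 1 cell, and was at 0.742 when the rule was applied to thinned cells. The stress cytokine Gdf15 (2.73), Syngr1, a synaptogyrin gene (2.36), and Ifit1bl1 (2.01) also fell below 1 in that alternative, at 0.997, 0.810 and 0.747.

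Of 23 type I interferon response genes tested, 6 were past the higher limit with ibudilast and none was past the lower limit, beside 12% and 15.5% of all tested genes. The median log2 ratio was 0.24, against 0.07 below the band and 0.14 above it. Isg15, a ubiquitin-like protein, was at 1410 CPM in ibudilast and 930 CPM in PBS members, a ratio of 1.52 (1.42 to 1.61), and at 1.3 below and 1.40 above the band. Ifit1, an RNA-binding antiviral gene, had a ratio of 1.39 (1.22 to 1.57) and Oasl2, an oligoadenylate synthetase-like gene, one of 1.29 (1.15 to 1.45). Others differed less: Ifit3 had a ratio of 1.21, Bst2 (tetherin) 1.13 and Rsad2 (viperin) 1.12. Applied to thinned cells the rule gave this list a median of -0.22, so its direction depended on the setting. Depth, membership and the genes tested changed together there, and their parts were not tested.

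These genes are classically switched on through the interferon-stimulated response element, and short stretches of 3 promoters are shown because genes with small and large ratios held the same element. The stretches come from RefSeq promoters of GRCm38.p6 and run 5′ to 3′ on the gene's strand, and capitals mark matches to GAAANNGAAA or its reverse complement TTTCNNTTTC, overlapping matches joined. Isg15 (chr4:156200845-156200926, minus strand) has 3 matches, Ifit3 (chr19:34583343-34583446, plus strand) 2, and Ifit1bl1 (chr19:34602033-34602102, minus strand) 1.
Isg15: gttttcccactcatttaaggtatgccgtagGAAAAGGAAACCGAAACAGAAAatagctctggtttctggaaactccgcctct
Ifit3: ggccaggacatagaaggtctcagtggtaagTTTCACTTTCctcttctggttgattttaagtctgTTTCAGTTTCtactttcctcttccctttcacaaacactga
Ifit1bl1: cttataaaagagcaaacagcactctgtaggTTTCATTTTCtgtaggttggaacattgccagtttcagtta
Within 250 bases upstream of the start, on either strand, the motif was present in 9 of 18 type I interferon genes with a promoter in the table (50%; 5 genes had no entry), in 12 of 18 interferon-gamma genes (66.7%), and in 936 of all 27025 promoters (3.46%). Among the genes tested in members it was present in 206 of 4981 (4.14%). None of 16 lipid handling, 9 MS4A and 8 MHC class II promoters held it. A match is a description of the letters and not of binding.

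Interferon-gamma response genes had 5 of 21 past the higher limit and 1 past the lower limit, with a median log2 ratio of 0.07. Of all tested genes, 12% and 15.5% were past these limits. Cxcl10, a T cell-attracting chemokine, was at 1963 CPM in ibudilast and 1280 CPM in PBS members, a ratio of 1.53 (1.45 to 1.62). Its sister gene Cxcl9 was at 954 CPM in ibudilast and 1035 CPM in PBS members, a ratio of 0.922, so the 2 chemokines were on opposite sides of 1. Il18bp, which neutralises interleukin-18, had a ratio of 1.82 (1.5 to 2.21), and Il18 itself one of 1.65 (1.22 to 2.24). Of 16 MHC class I genes 3 were past the higher limit and none past the lower limit, led by H2-M3 at 1.36 and H2-Q7 at 1.3 (1.2 to 1.42).

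Of 10 MHC class II genes tested, none was past the higher limit and 2 were past the lower limit, a share near the 15.5% of all tested genes, and the median log2 ratio was -0.15. Cd74, the invariant chain, was at 9578 CPM in ibudilast and 12641 CPM in PBS members, a ratio of 0.758 (0.743 to 0.773), and H2-DMb2, which loads peptide, was at 0.461 (0.318 to 0.657) but at 1.04 when the rule was applied to thinned cells. The chains H2-Aa, H2-Ab1 and H2-Eb1 were at 0.897, 0.9 and 0.892, inside the fold limits. In T cells the class II genes also had a lower median with ibudilast, at 0.407% of UMIs against 0.748% with PBS. The part of such background in the members' ratios was not tested. The macrophage list was split, with 9 of 29 genes past the higher limit and 5 past the lower limit, against 12% and 15.5% of all tested genes. The cathepsin Ctsd had a ratio of 1.5 (1.40 to 1.60), whereas Adgre1, which encodes F4/80, was at 0.656 (0.513 to 0.835), the apoptotic-cell receptor Axl at 0.692 (0.605 to 0.79) and the tetraspanin Cd81 at 0.519 (0.424 to 0.633).

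Chemokine genes differed by member. Of 15 tested, 3 were past the higher limit (Ccl5, Cxcl10 and Pf4) and 3 past the lower limit (Cxcl2, Ccl7 and Ccl17). The shares over all tested genes were 12% and 15.5%. Cxcl2, a neutrophil chemoattractant, was at 262 CPM in ibudilast and 544 CPM in PBS members, a ratio of 0.481 (0.429 to 0.539) that stayed between 0.426 and 0.511 under every alternative run. Ccl7, a monocyte chemoattractant, was at 121 CPM in ibudilast and 240 CPM in PBS members, a ratio of 0.506 (0.426 to 0.598) that ran from 0.217 with the rule on thinned cells to 0.97 with the MHC class II ranges described below weighted alike. Ccl2, which acts on the same receptor, was at 0.961, inside its limits. Ccl17 had 14 ibudilast and 57 PBS UMIs, a ratio of 0.301, and 2.15 without its top cells. The summed neutrophil markers were 127 CPM in ibudilast members with 2 genes at 0 and 248 CPM in PBS members with 1 gene at 0, and their part in the Cxcl2 difference was not tested.

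The lowest ratio among the genes that met the naming rule for this comparison was that of Mgl2, a lectin of alternatively activated macrophages and dendritic cells, which was at 34.7 CPM in ibudilast and 120 CPM in PBS members, a ratio of 0.288 (0.212 to 0.387). It had a UMI in 12 ibudilast and 48 PBS members. In the ibudilast library 37.5% of its UMIs came from 1 cell. Thinned, it was found in 3.43% of ibudilast and 10.4% of PBS members, and in 2.04% and 6.43% of T cells. The same order was thus present in the T cell set, from which doublets were not removed. Csf1, a macrophage growth factor, was at 18.6 CPM in ibudilast and 56.1 CPM in PBS members, a ratio of 0.331 (0.214 to 0.500), and Egr2, a transcription factor of alternative activation, at 0.462 (0.322 to 0.654). Slpi, a protease inhibitor, was at 0.517 (0.385 to 0.687), the AAA+ ATPase Ruvbl1 at 0.461, the chaperone Pdia4 at 0.511, the glutaminyl cyclase Qpct at 0.483 and the mitochondrial ribosomal gene Mrps18b at 0.440. The last 3 depended on the setting: Pdia4 reached 1.02 and Qpct 0.851 with the rule on thinned cells, and Mrps18b reached 0.874 with members thinned. At the other end Gadd45g, a stress-response gene, had a ratio of 2.44 (1.84 to 3.25) on 153 ibudilast and 77 PBS UMIs.

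**Figure D2:**
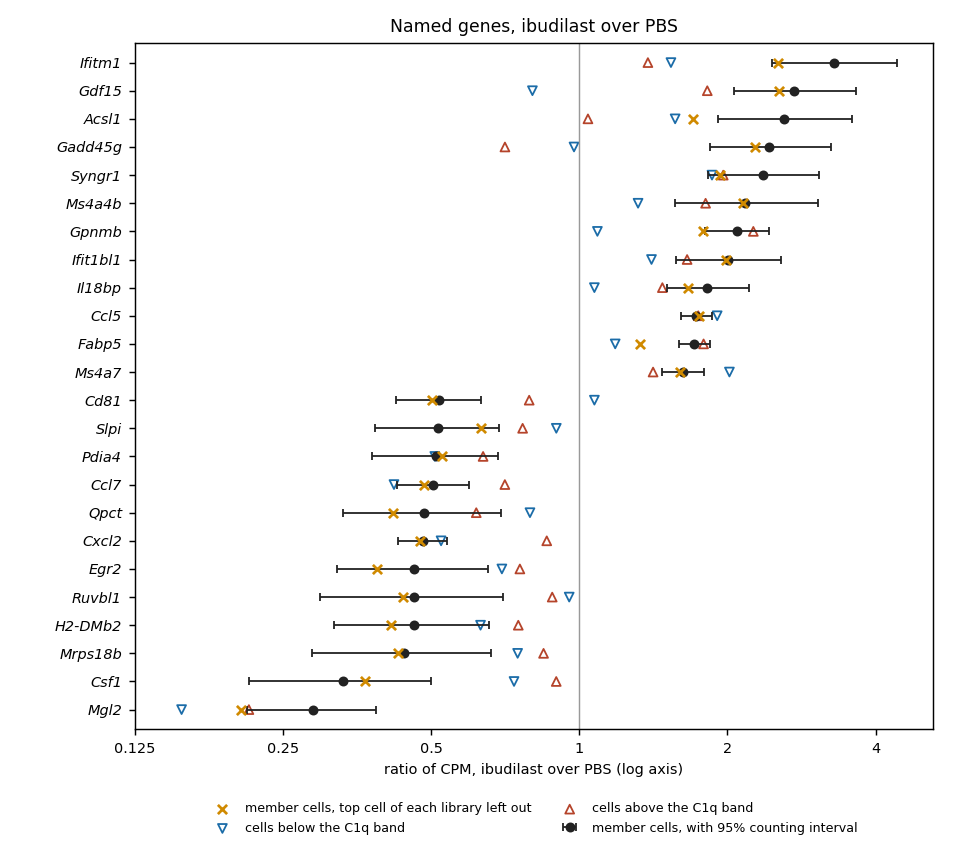
Ratio of CPM, ibudilast over PBS (log axis), for the 24 genes named by rule: black points with 95% counting intervals are members, crosses are members without the top cell of each library, and open triangles are the cells below and above the C1q band. Ms4a7 and Ccl5 were higher with ibudilast and Mgl2 and Cxcl2 lower in all 3 sets, while Gadd45g was at 2.44 in members and 0.707 above the band.

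Transcription factor genes of the lineage divided into 5 of 22 past the higher limit and 4 past the lower limit, beside 12% and 15.5% of all tested genes. Id2, an inhibitor of basic helix-loop-helix factors, was at 427 CPM in ibudilast and 262 CPM in PBS members, a ratio of 1.63 (1.45 to 1.83), whereas its relative Id3 was at 11.1 CPM in ibudilast and 30.8 CPM in PBS members, a ratio of 0.362 (0.201 to 0.620) on 18 and 61 UMIs. Cebpa, a myeloid lineage factor, had a ratio of 1.40 (1.21 to 1.62), and the immediate early gene Nr4a1 one of 0.734 (0.588 to 0.914). Monocyte genes were mostly inside the limits, with 2 of 26 past the higher limit and 2 past the lower limit. Plac8 was at 2933 CPM in ibudilast and 2394 CPM in PBS members, a ratio of 1.23 (1.18 to 1.28), and Ccr2 had a ratio of 1.03 (0.928 to 1.15). Lyz1 was at 0.128, but without its top cells it was at 0.914.

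Of the drug's named targets, the phosphodiesterase genes were sparse and Mif was not. Pde4b had 55 ibudilast and 77 PBS UMIs, a ratio of 0.875 with 1 inside its interval, and Pde4d had 13 and 3 UMIs. Mif was at 567 CPM in ibudilast and 518 CPM in PBS members, a ratio of 1.09 (1 to 1.2). Of 6 phosphodiesterase and MIF pathway genes tested, none was past the higher limit and 1 was past the lower limit. Of 13 cAMP and CREB response genes, 1 was past the higher limit and 3 past the lower limit, with a median log2 ratio of 0.10; Per1, a clock gene that cAMP induces, was at 0.596 (0.386 to 0.904). In the remaining lists, to be read against 12% higher and 15.5% lower over all tested genes, the counts higher and lower with ibudilast were for complement 0 and 3 of 9, lysosome 2 and 0 of 21, NF-kB and inflammatory cytokines 3 and 0 of 19, glycolysis and hypoxia 0 and 1 of 20, and cell cycle 1 and 4 of 10. Dissociation stress genes had 1 of 19 higher and none lower, immunosuppressive macrophage genes 1 and 2 of 18, receptors 2 and 2 of 23, Fc gamma receptors 0 and 1 of 6, Ly6 genes 0 and 1 of 4, and integrated stress response genes 2 and 0 of 8.

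**Figure D3:**
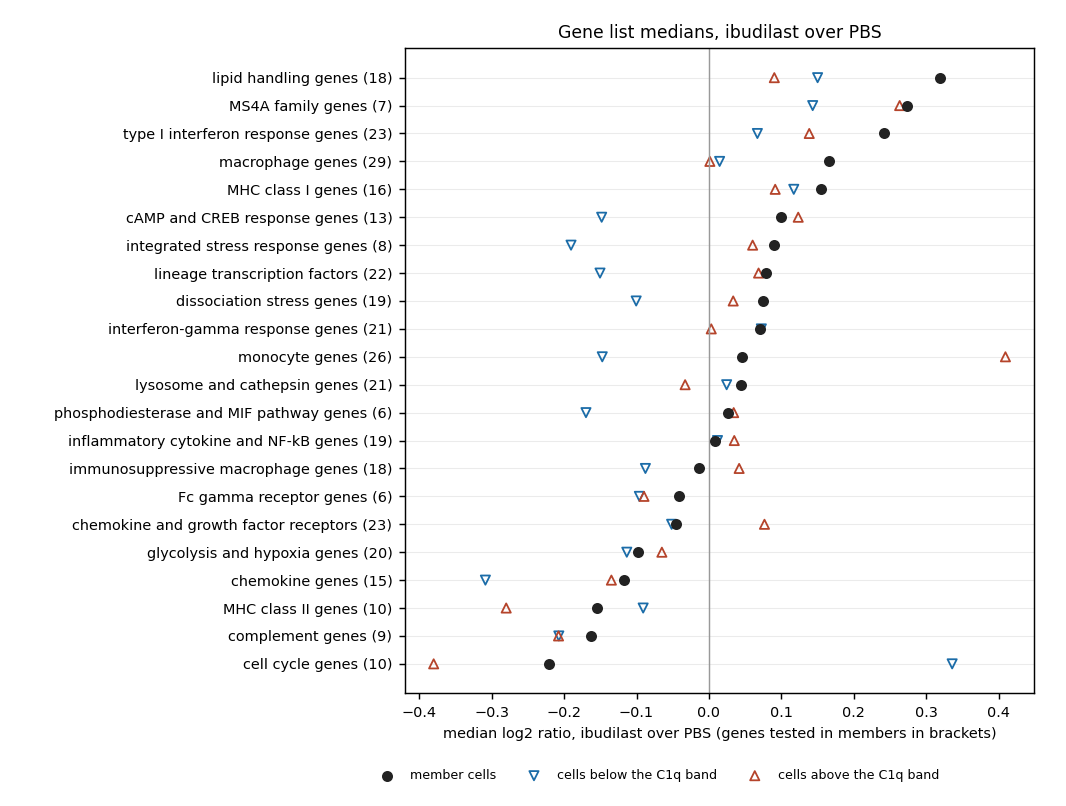
Median log2 ratio, ibudilast over PBS, over the tested genes of each list, in members (black) and in the cells below and above the C1q band (open triangles); the number of genes tested in members is in brackets. Lipid handling genes had the highest median in members at 0.32, which was -0.04 when the rule was applied to thinned cells, and cell cycle genes the lowest at -0.22, which ran from -0.39 to 0.23 over the alternatives.

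The members were not uniform in MHC class II. The class II genes had a median of 3.03% of a cell's UMIs in ibudilast and 3.64% in PBS members, against 0.636 and 0.608% below the band and 3.76 and 4.86% above it, and the members' values ran from under 0.5% to over 8%. In the T cells described above the median was 0.407% with ibudilast and 0.748% with PBS, and the 90th percentile was 3.51% and 4.25%. How much of the members' class II RNA came from outside the cell was not tested. Members were described in 3 ranges, chosen after the values were seen: 24 of 176 ibudilast members (13.6%) and 24 of 184 PBS members (13%) were under 1%, 62 (35.2%) and 50 (27.2%) were from 1 to under 3%, and 90 (51.1%) and 110 (59.8%) were at 3% or more. Of the cells above the band, 12.7% with ibudilast and 5% with PBS were under 1%. No gap separated the ranges: 7 ibudilast and 9 PBS members lay within 0.2 percentage points of 1%, and 16 and 11 of 3%. The median C1q share did not follow the ranges, at 0.534, 0.526 and 0.553% of UMIs with ibudilast and 0.567, 0.520 and 0.583% with PBS. Depth did: the median was 5707.5, 7331 and 8470 UMIs with ibudilast and 5999, 8227 and 10216.5 with PBS.

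**Figure D4:**
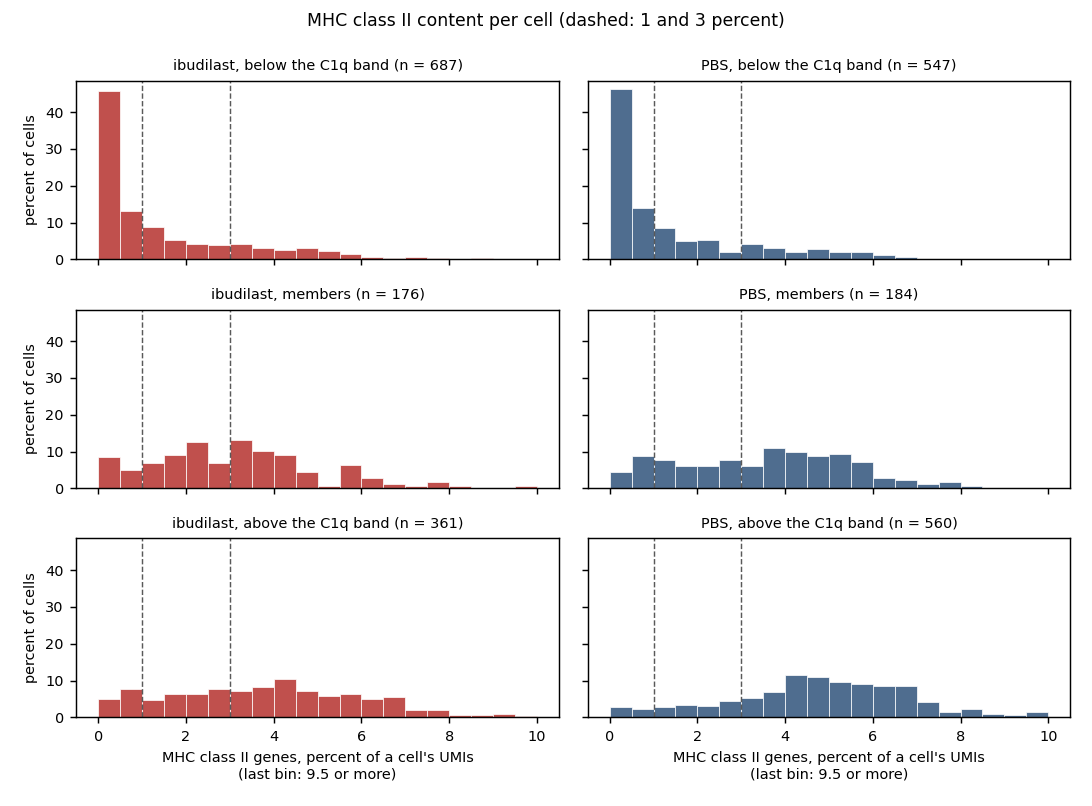
Percent of cells by MHC class II content (percent of a cell's UMIs, bins of 0.5 points) in the ibudilast (left) and PBS (right) libraries, for cells below the C1q band, members and cells above it; dashed lines mark 1% and 3%. Members spread over the whole range, with medians of 3.03% and 3.64%, whereas most cells below the band were under 1%. Cells above the band spread over the range as well, with 12.7% of them under 1% with ibudilast and 5% with PBS.

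Many genes differed between members with little and with much MHC class II in the same direction in both libraries. Of 2730 genes compared, 14.9% were past the higher limit in the cells under 1% relative to those at 3% or more in both libraries, and 11.7% past the lower one. Because the ranges were cut on MHC class II, the counts below are a description of those cells. Gpnmb was at 1160 CPM in members under 1% and 59.7 CPM in members at 3% or more with ibudilast, and at 674 and 97.9 CPM with PBS. Spp1 (osteopontin) was 19.3-fold higher with ibudilast and 4.31-fold with PBS, Fabp5 4.83-fold and 3.95-fold, and Ctsd 4.48-fold and 2.76-fold. Monocyte and interferon genes were on the same side: Chil3 was 11.2-fold and 4.31-fold higher, Isg15 1.97-fold and 2.57-fold, Rsad2 2.57-fold and 6.54-fold, and Plac8 1.80-fold and 2.50-fold. Of 22 type I interferon genes 20 were higher in the cells under 1% in both libraries, and of 21 monocyte genes 16 were.

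On the other side were, beside the MHC class II genes that set the ranges, genes of several kinds. Ciita, the master regulator of MHC class II, was at 0.219 of the level at 3% or more with ibudilast and 0.249 with PBS, and Cd72, a surface lectin, at 0.301 and 0.182. Mgl2 had 0 UMIs in the cells under 1% of both libraries, against 50 ibudilast and 216 PBS UMIs in those at 3% or more. C1qc (1.09 and 1.11) and Ms4a7 (1.2 and 1.24) hardly differed between the ranges, and Ccr2 was at 0.862 and 0.679. These are sums over cells, and whether the same cells carried the genes was not tested.

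The level of these genes in the cells under 1% was uneven. Gpnmb had a UMI in 12 of 24 ibudilast and 11 of 24 PBS cells, and Spp1 in 11 and 19. The top cell of each gene held 54.7% of the Fabp5 and 36.8% of the Spp1 UMIs in the ibudilast library, and 28.1% and 38.2% in the PBS library. Without the top cell Gpnmb was at 969 CPM in ibudilast and 572 CPM in PBS cells, and Fabp5 at 1040 and 1333 CPM. Isg15 was carried by 23 of 24 cells in each library, with per-cell medians of 1610 CPM with ibudilast and 1645 CPM with PBS.

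**Figure D5:**
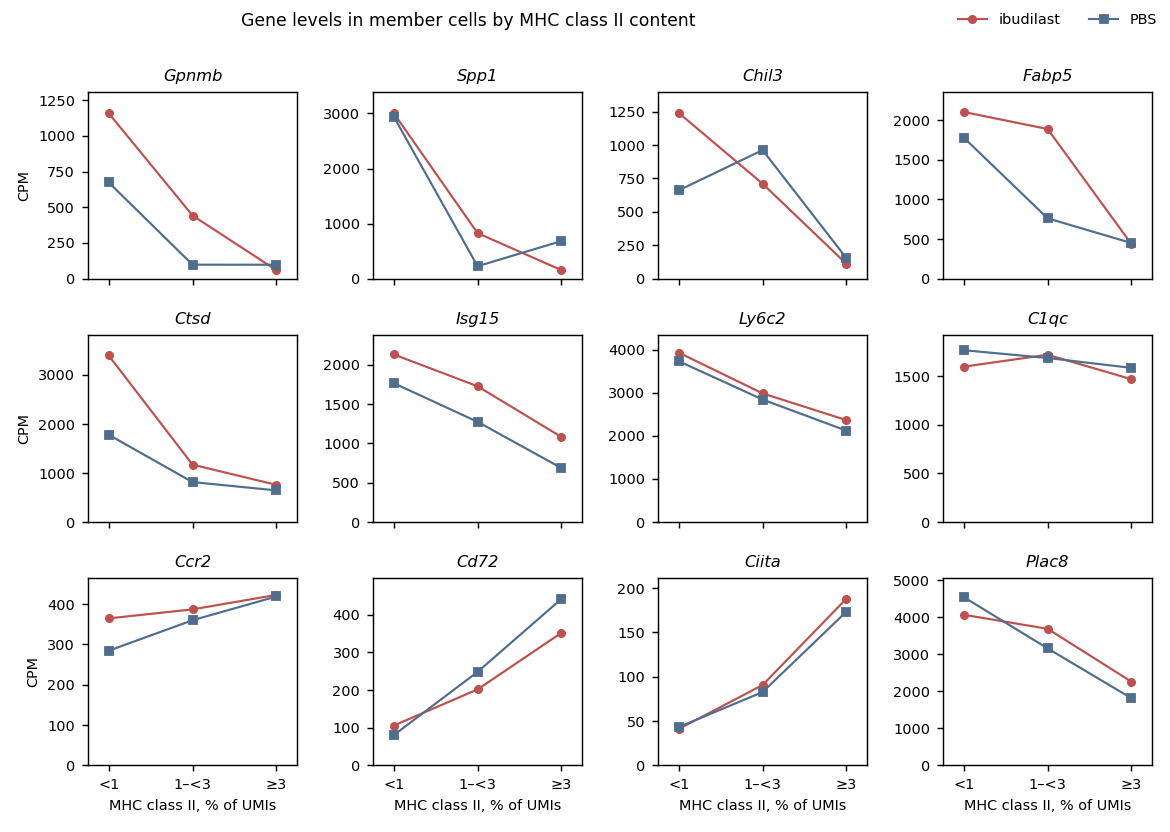
CPM of 12 genes in members with MHC class II under 1%, from 1 to under 3% and at 3% or more of UMIs, in the ibudilast (red) and PBS (blue) libraries, with 24, 62 and 90 ibudilast and 24, 50 and 110 PBS cells. Gpnmb, Fabp5, Ctsd and Isg15 were higher under 1% than at 3% or more in both libraries, and Cd72 and Ciita lower. Ly6c2 was higher under 1% as well, but the rule gates it at 3 UMIs per cell and those cells were shallower. The part of that gate in the Ly6c2 levels was not tested.

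Summed markers of other cell types were higher with ibudilast for some types and with PBS for others. The B cell markers summed to 130 CPM in ibudilast and 222 CPM in PBS members, with 0 and 1 genes at 0, NK cell markers to 57.6 and 30.8 CPM with 2 genes at 0 in each, and microglia markers to 494 and 604 CPM with 2 and 1 at 0. Dendritic cell markers summed to 57.6 and 27.8 CPM, mast cell markers to 3.1 and 2.02 CPM with 3 and 4 genes at 0, and plasmacytoid dendritic cell markers to 1475 and 1302 CPM with 1 and 2 at 0. Bst2, which the interferon list also holds, made up 1387 and 1228 CPM of that last sum. Siglech, Ncr1 and Klrb1c are at 0 because the rule requires it. The rule also limits Cd209a of the dendritic cell markers and the Cd3 genes of the T cell markers. Oligodendrocyte markers summed to 96.0 and 94.5 CPM with 2 genes at 0 in each, red cell markers to 76.2 and 40.4 CPM with 1 gene at 0 in each, and endothelial markers to 72.5 and 64.2 CPM with 3 at 0 in each. Ly6d, a B-lineage gene, had 6 ibudilast and 65 PBS UMIs in members, next to the B cell sum that was higher with PBS. Their part in the differences above was not tested.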

How the data were processed

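UMI counts per gene and barcode were deposited by the authors as raw count matrices of 2 10x 3′ libraries, which per the file headers came from Cell Ranger 6.1.1, on mm10, per the submitters' processing notes. Barcodes with at least 300 genes, 500 UMIs and under 10% mitochondrial UMIs were kept. Doublet scores came from Scrublet in scanpy 1.11.5 and removed no cell. Counts were summed over cells with Python 3.11.15 (numpy 2.4.6, scipy 1.17.1, pandas 2.3.3) and drawn with matplotlib 3.10.9. Ratios used exact conditional binomial intervals, and 0.5 UMI was added to both sums for calls at a ratio of 0.8 or its inverse. Genes were named by interval bound: at least 100 UMIs, a UMI in 10% of cells, the 12 highest and 12 lowest, and against each neighbour the 8 highest and lowest ratios common to both libraries (up to 12 where the band was extreme). The results of 2 genes of the lists are not reported here. Members and lists were chosen with earlier results of these data known. Gene positions are those of GENCODE M21; promoters are RefSeq's. The scripts for sums and ratios were tested on simulated data. The alternatives tried changed the cell filter, doublets, Ly6c2 gate, C1q limits, depth, weighting of cells, scaling, minimum sum and added count.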

Additional observations from a re-analysis of the deposited data

Results flagged for a closer look

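In 4 of 407 genes looked at, the ratio of ibudilast to PBS lay past a fold limit on one side of 1 in members and past the opposite limit in a neighbouring set of the C1q axis. A gene could be flagged only with at least 100 UMIs in members and at least 100 in the neighbouring set, over both libraries. The 407 include genes short of that. The difference was not tested, since each treatment had 1 library. Gadd45g was at 2.44 (1.84 to 3.25) in members and 0.707 (0.621 to 0.802) above the band. Nr4a1 was at 0.734 (0.588 to 0.914) in members and 1.33 (1.12 to 1.57) above the band. Cd72 was at 0.763 (0.676 to 0.86) in members and 1.34 (1.18 to 1.52) below the band. Cd24a, a surface glycoprotein gene, was at 1.32 (0.893 to 1.94) in members and 0.739 (0.575 to 0.947) below the band, and its interval in members included 1.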

How the results depend on the processing

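No paired analysis was possible because each treatment had 1 library, and for the same reason no replicate could be left out. The rule on thinned cells changed both depth and membership and left 148 ibudilast and 126 PBS members and 1531 genes. The ratio of the members' share was 1.42 with that rule and 1.66 within the Lyz2 gate. Genes higher and lower with ibudilast numbered 189 and 262 with the thinned rule, 251 and 352 with members thinned, 332 and 491 at 100 UMIs, and 3256 and 3538 at 1 UMI. Higher and lower than below the band, they numbered 244 and 331, 370 and 483, 731 (higher) at 100 UMIs, and 2818 and 1502 at 1 UMI. Higher and lower than above it, they numbered 156 and 86, 306 and 175, 329 (lower) at 100 UMIs, and 1867 and 1193 at 1 UMI. Genes highest in the band numbered 110 for a band of 0.4 to 0.7%, 4 with the thinned rule, 15 with members thinned, 32 under median-of-ratios scaling, 17 at 100 UMIs and 561 at 1 UMI. Genes lowest in the band numbered 24, 2, 27, 5 and 178 for the same band, thinned rule, scaling, 100 UMIs and 1 UMI, and 25 with each cell weighted alike. Lists with a median of 0.1 or more numbered 5, but 10 with Ly6c2 at 300 CPM, 9 in the narrower band and 3 with the thinned rule. Gene ratios crossed 1 in 10 cases. Fabp5 was at 0.925 with Ly6c2 at 300 CPM, 0.963 at 5 Ly6c2 UMIs and 0.829 with the thinned rule. Ifitm1 was at 0.921 with members thinned, and with the thinned rule at 0.742, Gdf15 0.997, Syngr1 0.810, Ifit1bl1 0.747, H2-DMb2 1.04 and Pdia4 1.02. The causes were not tested. Ms4a7, Ccl5, Cxcl2, Cd81, Csf1 and Mgl2 stayed on 1 side under every alternative run. Ccl5 ran from 1.19 to 2.00, so its lowest ratio was inside the fold limits. The medians of MHC class II (-0.31 to -0.03), MS4A (0.19 to 0.59) and complement genes (-0.22 to -0.12) kept their sign, and those of lipid handling (-0.04 to 0.41) and macrophage genes (-0.03 to 0.23) did not.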
